A study of Caenorhabditis elegans with 22 samples.

Results

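The comparison described here is that of Caenorhabditis elegans worms kept on 2-deoxyglucose, sampled at 10 days and at 5 days, and read out as microRNA hairpin counts. It uses 6 of the 22 libraries analysed here, 3 at day 10 and 3 at day 5. The 2-deoxyglucose worms of the same design at 1 day (3 libraries) and 20 days (2 libraries) enter below only for the adjoining age steps. A hairpin was taken as a member where it had 10 or more counts in at least 3 of these 6 libraries, and 128 of the 250 hairpins in the count table met that rule. Age played no part in the rule. All worms were N2, the standard wild-type strain, all were hermaphrodites, and each library was made from whole worms, so every tissue and any eggs carried inside are mixed in 1 value. Both age groups were given 2-deoxyglucose, a sugar that enters glycolysis but cannot pass through it, at a dose the labels leave unstated. A parallel set of N2 hermaphrodites was given rotenone, an inhibitor of mitochondrial complex I, at 0.039441 µg/ml, and 3 rotenone libraries each at day 10 and day 5 are used below only to ask where the 2-deoxyglucose worms differ. Worms with neither compound are not analysed here, so age effects are described within a compound. The series title speaks of DMSO where the sample labels speak of 2-deoxyglucose, and the sample labels are followed. Whether same-age libraries stem from independent worm cultures is not stated, and the p-values below therefore reflect only how these libraries scatter, which may be technical.

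A microRNA is cut from a hairpin transcript, loaded into an Argonaute protein, and pairs through its seed with messenger RNAs, which are then repressed. Many worm microRNAs belong to families that share a seed, and members of a family can stand in for each other. In C. elegans lin-4 and let-7 were found as switches of larval timing, the mir-35 family is made in oocytes and early embryos and is needed for embryonic development, and a handful of microRNAs, mir-71, mir-239 and mir-80 among them, alter lifespan when deleted.

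The day 10 libraries held 1150838, 940056 and 1738413 hairpin counts, against 1166234, 664900 and 979603 in the day 5 libraries. Over the 22 libraries totals ran from 664900 to 2233973. One count was therefore worth 0.626 to 1.11 CPM (counts scaled to the TMM-adjusted library total) at day 10 and 0.868 to 1.65 CPM at day 5. The 5 most abundant hairpins took 54.1 to 56.5% of the counts at day 10 and 55.6 to 58.3% at day 5. One library stood apart from its group, day 5 library 1: its scaled chi-square distances (chi-square divided by degrees of freedom) to the other day 5 libraries were 319 and 225, against 57.6 between those libraries and 23.1 to 89.2 within day 10. In a principal component analysis of the 6 libraries the first axis, with 55.6% of the variance, separated the ages, and on the second, with 21.8%, day 5 library 1 lay at 4.39 and the other 5 between -3.01 and 0.58. The day 10 libraries were run in lanes 4, 5 and 6 and the day 5 libraries in lanes 2, 3 and 4, so lane and age are largely tied together and only lane 4 holds both ages. Hairpins of muscle (mir-1), intestine (mir-60), sensory neurons (mir-124, lsy-6) and glia (mir-228) were all counted in the 6 libraries, which is too weak a check to test the whole-worm label. The neuronal counts were low: mir-124 had 7, 12 and 14 at day 10 and 11, 3 and 13 at day 5. lsy-6 had 11, 7 and 24 at day 10 and 13, 9 and 17 at day 5.

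Of the 128 members, 108 had 10 or more counts in all 6 libraries and 7 in exactly 3. Just inside the rule, mir-357 had 8, 12 and 17 counts at day 10 and 8, 10 and 9 at day 5. Just outside it, mir-251 had 5, 10 and 11 counts at day 10 and 3, 0 and 3 at day 5. There were 3 members that passed through 1 age alone: mir-4937 and mir-5545 through day 10, and mir-1020 through day 5. The members held 99.99% of all counts in the 6 libraries, and of the 122 hairpins left out 38 had no count there.

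At day 10 against day 5, 22 members rose and 22 fell, so 44 of 128 changed. A change was called where edgeR's quasi-likelihood test gave a Benjamini-Hochberg adjusted p below 0.05 over the 141 hairpins tested across the 22 libraries. All calls lay among the members, and over the tested hairpins they came to 31.2%, with 15.6% in each direction. At an unadjusted p under 0.05 there were 57. The median log2 fold change of all hairpins tested was -0.03. Of the 44 changed members, 41 had day 10 libraries that did not overlap the day 5 libraries, and the exceptions were mir-64, mir-65 and mir-81. The calls came from these same libraries, so such separation largely follows from the call and adds no support to it. Hairpins that were not called could separate too, as lin-4 did. In lane 4 alone, with 1 library of each age and no test, all 44 lay on the same side as in the full comparison, which includes that pair. For the 41 without overlap that side was fixed in advance, so the lane 4 pair cannot tell whether lane matters. With lane as a factor 44 hairpins were again called, 37 of them shared. The call held under every alternative run for 24 of the 44, and no called hairpin changed sign under any. In whole-worm RNA, fewer cells of a type and less RNA per cell cannot be told apart, which holds for every change below.

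**Figure D1:**
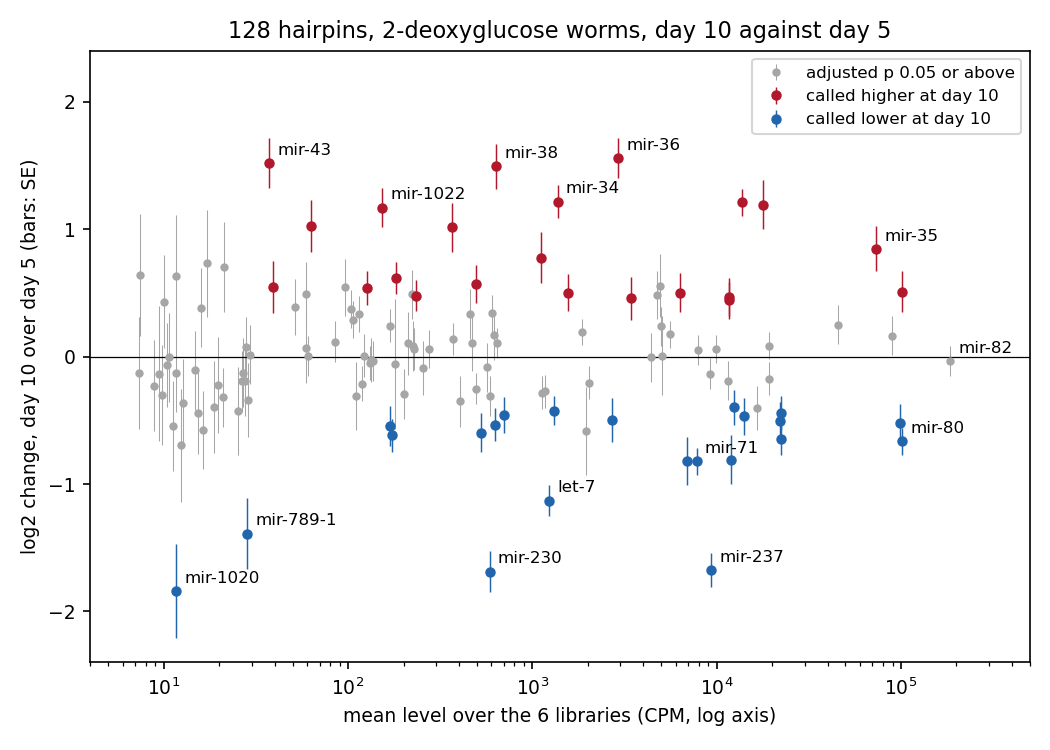
Log2 fold change, day 10 over day 5 in 2-deoxyglucose worms, of each of the 128 members (vertical axis, bars are standard errors) against its mean level over the 6 libraries (CPM, log axis). Called hairpins lie at most levels, from mir-1020 near the low end to mir-80 near the high end, while the most abundant hairpin, mir-82, sits near 0. Calls are fewer at low levels: 3 higher and 2 lower among the least abundant 42 members, against 11 and 13 among the most abundant 43.

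The mir-35 family rose almost as a whole. Of its 8 members, 7 rose, none fell, and the median log2 fold change was 1.10, against -0.03 over all hairpins tested. The share called higher over all hairpins tested was 15.6%. All of the 8 but mir-42 lie in 1 cluster, so they need not vary independently. The family took 24.0, 23.9 and 27.9% of all counts at day 10, against 14.9, 15.1 and 14.9% at day 5, or 25.3% ± 2.33 at day 10 and 14.96% ± 0.0916 at day 5 (SD, n = 3 libraries each). Its first member, mir-35, had 83483, 91944 and 108580 CPM at day 10, against 53268, 53783 and 51022 CPM at day 5. Every day 10 library of mir-35 was above every day 5 library, and the log2 fold change was 0.85 ± 0.18 (SE; adjusted p = 0.000614). The largest log2 fold change among the members that rose was that of mir-36, with 4615, 4256 and 4155 CPM at day 10, against 1909, 1128 and 1378 CPM at day 5. This is a 2.94-fold change (log2 1.56 ± 0.16, adjusted p = 4.43e-08), and the highest day 5 value, in library 1, was still below the lowest at day 10.

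For mir-39 the libraries held 18483, 19059 and 19687 CPM at day 10, against 7428, 8348 and 8957 CPM at day 5 (log2 1.21 ± 0.11, adjusted p = 8.74e-09). mir-37 had 22141, 24888 and 27882 CPM at day 10, against 11090, 10474 and 11224 CPM at day 5 (log2 1.19 ± 0.19). mir-38 had 1002, 886 and 917 CPM at day 10, against 392, 224 and 373 CPM at day 5 (log2 1.49 ± 0.18). In all these hairpins the groups were apart, and levels within the family still spanned a wide range, from mir-35 and mir-40 at the top to mir-41 at the bottom. mir-40 was the weakest of the called members: it had 107875, 107279 and 142101 CPM at day 10, against 76694, 90685 and 83873 CPM at day 5 (log2 0.51 ± 0.16, adjusted p = 0.017). Its call was lost with lane as a factor (log2 0.35, adjusted p = 0.0784), without day 5 library 1 (log2 0.45, adjusted p = 0.0627) and without day 10 library 3 (log2 0.36, adjusted p = 0.109). In all, mir-40 was called in 14 of 18 alternatives. The family's remaining hairpin, mir-41, had 96.8, 54.4 and 58.2 CPM at day 10, against 57.3, 42.8 and 46.3 CPM at day 5. Those libraries overlapped, and the log2 fold change of 0.49 ± 0.25 did not pass (adjusted p = 0.134).

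The family lies in 2 clusters. By name in the Ensembl annotation of assembly WBcel235, mir-35 to mir-41 lie on the plus strand of chromosome II between 11537608 and 11538404, inside an intron of Y62F5A.9, which is transcribed from the other strand, each 3 to 33 bases from its nearest neighbour. The eighth, mir-42, lies further along chromosome II beside mir-43 and mir-44, between 11889811 and 11890118. It had 476, 439 and 551 CPM at day 10, against 257, 249 and 222 CPM at day 5, with no overlap (log2 1.01 ± 0.20, adjusted p = 0.000322). mir-43, which carries a mir-2 family seed, had 60.5, 54.4 and 52.6 CPM at day 10, against 25.2, 13.2 and 17.2 CPM at day 5 (log2 1.52 ± 0.20). All 3 hairpins of the second cluster were called higher, but reads of mir-44 cannot be told from those of mir-45, which lies outside it.

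**Figure D2:**
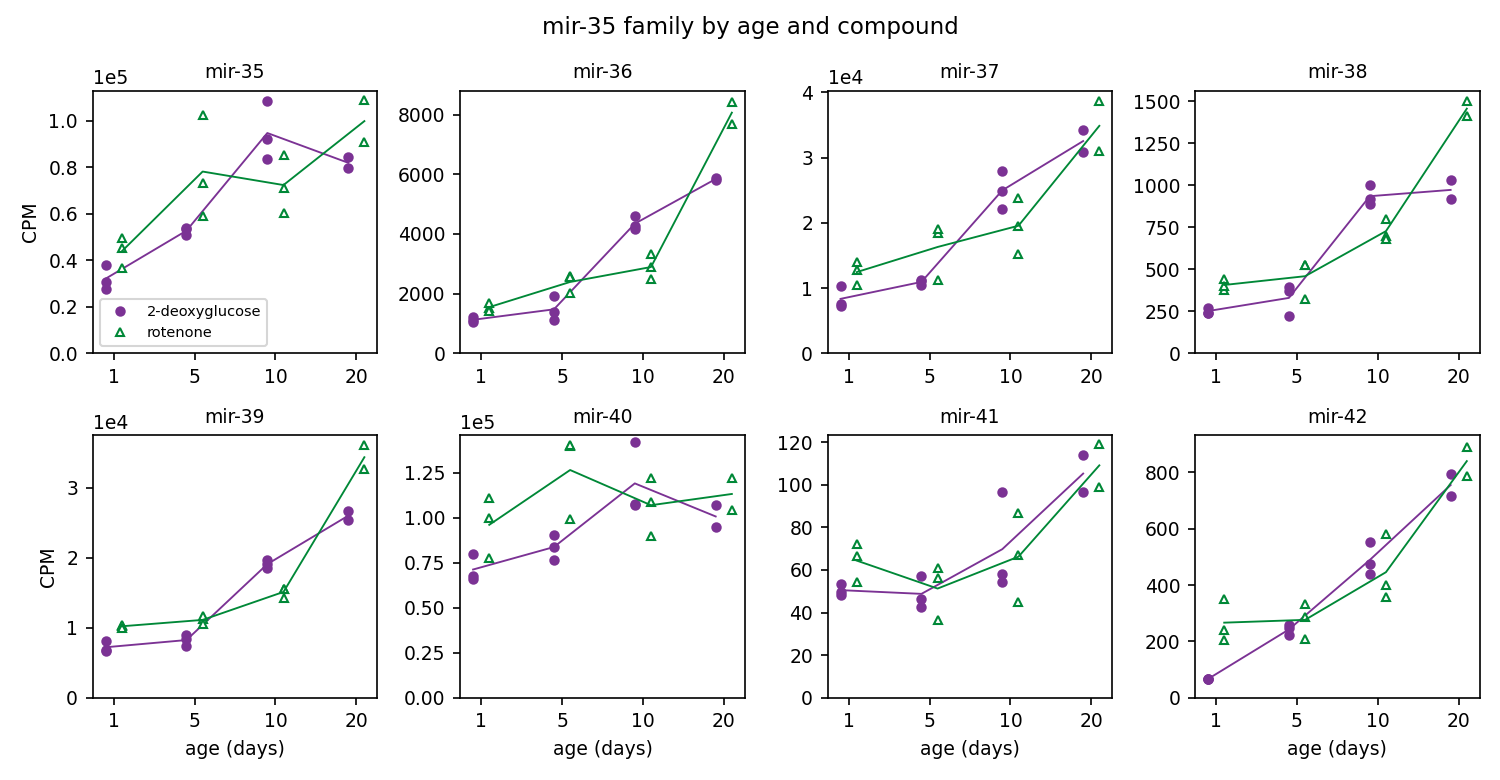
Levels of the 8 mir-35 family hairpins (CPM) in each library at 1, 5, 10 and 20 days. Points are libraries. In 7 of the 8 the 2-deoxyglucose day 10 libraries lie above the 2-deoxyglucose day 5 libraries, and in mir-41 they overlap.

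Calls with the mir-2 and mir-44 seeds were also higher: 2 of 3 mir-2 family members, mir-43 and mir-250, and all 3 of the mir-44 family, mir-44, mir-45 and mir-61. Over all hairpins tested, 15.6% were called higher. These hairpins need not vary independently, since mir-43 and mir-44 share a cluster and mir-250 and mir-61 are close neighbours. mir-250 had 612, 620 and 548 CPM at day 10, against 379, 361 and 457 CPM at day 5 (log2 0.57 ± 0.15, adjusted p = 0.0053). mir-61, known from vulval development, where it reinforces Notch signalling, lies on chromosome V 45 bases from mir-250. It had 6799, 7172 and 8331 CPM at day 10, against 4074, 6064 and 5618 CPM at day 5 (log2 0.50 ± 0.15, adjusted p = 0.0139). The lowest day 5 value was in library 1, and the call of mir-61 was lost without that library (log2 0.35, adjusted p = 0.0878) and without day 10 library 3 (log2 0.41, adjusted p = 0.0745). In all, mir-61 was called in 15 of 18 alternatives. mir-44 had 12529, 13304 and 14679 CPM at day 10, against 7958, 11076 and 10286 CPM at day 5 (log2 0.47 ± 0.15, adjusted p = 0.0193). mir-45 encodes the same mature microRNA and had nearly the same counts, within 2.18% of those of mir-44 in each of the 6 libraries. Reads shared by the pair cannot be assigned, so its calls are uncertain and amount to 1 measurement, and without mir-45 there were 43 calls, 21 higher. The call of mir-44 was lost without day 5 library 1 (log2 0.34, adjusted p = 0.101), day 10 library 2 (log2 0.57, adjusted p = 0.0566) or day 10 library 3 (log2 0.40, adjusted p = 0.0801), and so was that of mir-45. In all, mir-44 was called in 13 of 18 alternatives and mir-45 in 11 of 17.

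Among 9 hairpins linked to lifespan or stress in earlier work, 3 rose, 3 fell and 3 did not pass, with a median log2 fold change of -0.13. Over all hairpins tested 31.2% were called, 15.6% in each direction. mir-34, a relative of mammalian miR-34 known to be more abundant in old worms, had 1819, 2001 and 1924 CPM at day 10, against 701, 889 and 884 CPM at day 5. Each day 10 library was well above each day 5 library (log2 1.22 ± 0.13, adjusted p = 7.94e-08). mir-239b had 1774, 1043 and 1389 CPM at day 10, against 902, 639 and 909 CPM at day 5 (log2 0.78 ± 0.20, adjusted p = 0.00428). Its near relative mir-239a had 2043, 1606 and 1853 CPM at day 10, against 1301, 1176 and 1408 CPM at day 5 (log2 0.50 ± 0.14, adjusted p = 0.00929). The pair comes from the locus whose loss is known to lengthen life, and in both hairpins the ages did not overlap. The third of that seed family, mir-238, whose loss is known to shorten life, did not pass, at -0.13 ± 0.12, and neither did mir-246, at 0.06 ± 0.11.

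The 3 hairpins of the lifespan list that fell were all abundant. mir-71, which promotes long life and stress resistance, had 5474, 5636 and 5779 CPM at day 10, against 10210, 9675 and 9936 CPM at day 5. The ages were far apart beside the spread within each, and the log2 fold change was -0.82 ± 0.11 (adjusted p = 1.4e-06). mir-80, a member of the mir-58 family whose loss gives features of dietary restriction, had 77854, 74932 and 81926 CPM at day 10, against 106132, 131273 and 134942 CPM at day 5 (log2 -0.67 ± 0.11, adjusted p = 4.05e-05). mir-228, a glial microRNA tied to the response to dietary restriction, had 82484, 78561 and 81377 CPM at day 10, against 154443, 93733 and 100654 CPM at day 5 (log2 -0.53 ± 0.15, adjusted p = 0.0106). The day 5 mean of mir-228 was pulled up by library 1. Without that library its log2 fold change was -0.27 (adjusted p = 0.107), and the call was also lost without day 10 library 1 (-0.43, adjusted p = 0.122) and without day 10 library 2 (-0.39, adjusted p = 0.162). With lane as a factor it was -0.35 (adjusted p = 0.146). In all, mir-228 was called in 13 of 18 alternatives.

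The microRNAs of developmental timing split within their families. let-7, which drives the larval-to-adult switch, had 764, 774 and 774 CPM at day 10, against 1445, 1819 and 1806 CPM at day 5 (log2 -1.13 ± 0.12, adjusted p = 8.08e-08). mir-241, which acts earlier in larvae with mir-48 and mir-84, had 429, 454 and 375 CPM at day 10, against 602, 670 and 629 CPM at day 5 (log2 -0.60 ± 0.15, adjusted p = 0.00352). These were the 2 called of the family's 7 members, whose median was -0.05, a share near the 31.2% called over all hairpins tested. mir-48 lies 1679 bases from mir-241 on chromosome V and had 19742, 21594 and 18381 CPM at day 10, against 17844, 19761 and 18654 CPM at day 5, so the ages overlapped (log2 0.09 ± 0.10). The others were mir-84 at 0.24 ± 0.15, mir-795 at 0.37 ± 0.15 (adjusted p = 0.0612), mir-794 at -0.05 and mir-793 at -0.29.

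In the lin-4 seed family mir-237 fell and lin-4 did not pass. mir-237, a lin-4 relative with the same seed, had 4365, 4336 and 4680 CPM at day 10, against 16599, 13598 and 12536 CPM at day 5. Its log2 fold change of -1.68 ± 0.14 had the smallest adjusted p of the comparison, 2.95e-09. lin-4 had 475, 518 and 581 CPM at day 10, against 662, 680 and 611 CPM at day 5, and although the ages did not overlap the change of -0.31 ± 0.15 did not pass (adjusted p = 0.134). mir-237 lies on the plus strand of the X chromosome at 8154084 to 8154182 (WBcel235).

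Other large falls were seen in hairpins with less known roles. mir-230, at 5803892 to 5803989 on the X chromosome (WBcel235), had 261, 304 and 268 CPM at day 10, against 777, 948 and 958 CPM at day 5 (log2 -1.69 ± 0.16, adjusted p = 2.22e-08). The low-level mir-1020, which lies within an intron of T16G12.1 on chromosome III, had 7, 5 and 6 counts at day 10, against 18, 12 and 18 counts at day 5 (log2 -1.84 ± 0.37, adjusted p = 0.000442). It had the largest fall in log2 terms, and it is also the member that met the count rule through day 5 alone, and without the members that met it through 1 age there were 43 calls among 125, 22 higher and 21 lower. mir-789-1 had 9.5, 18.9 and 18.8 CPM at day 10, against 39.0, 34.6 and 49.5 CPM at day 5 (log2 -1.39 ± 0.28). Its paralogue mir-789-2 gave -0.32 and did not pass (adjusted p = 0.363). Whether the 2 hairpins share reads is not stated, so the split between them is uncertain. Summed, the pair had 34.2 CPM ± 4.97 at day 10 and 64.4 CPM ± 11.4 at day 5 (SD, n = 3 libraries each).

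mir-70 had 17678, 17370 and 17366 CPM at day 10, against 29367, 24714 and 28113 CPM at day 5 (log2 -0.65 ± 0.12, adjusted p = 0.000291). mir-235, the worm relative of miR-92, which keeps progenitor cells quiescent in starved larvae, had 4262, 5310 and 5411 CPM at day 10, against 6177, 11386 and 8848 CPM at day 5 (log2 -0.82 ± 0.19, adjusted p = 0.00179). mir-55 had 7825, 9994 and 8289 CPM at day 10, against 11359, 17017 and 17364 CPM at day 5 (log2 -0.81 ± 0.19, adjusted p = 0.00202). In both mir-235 and mir-55 the ages were apart, but day 5 was spread wide, with library 1 the lowest. Both calls were lost without day 10 library 1, at -0.63 (adjusted p = 0.0708) for mir-235 and -0.65 (adjusted p = 0.0706) for mir-55.

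**Figure D3:**
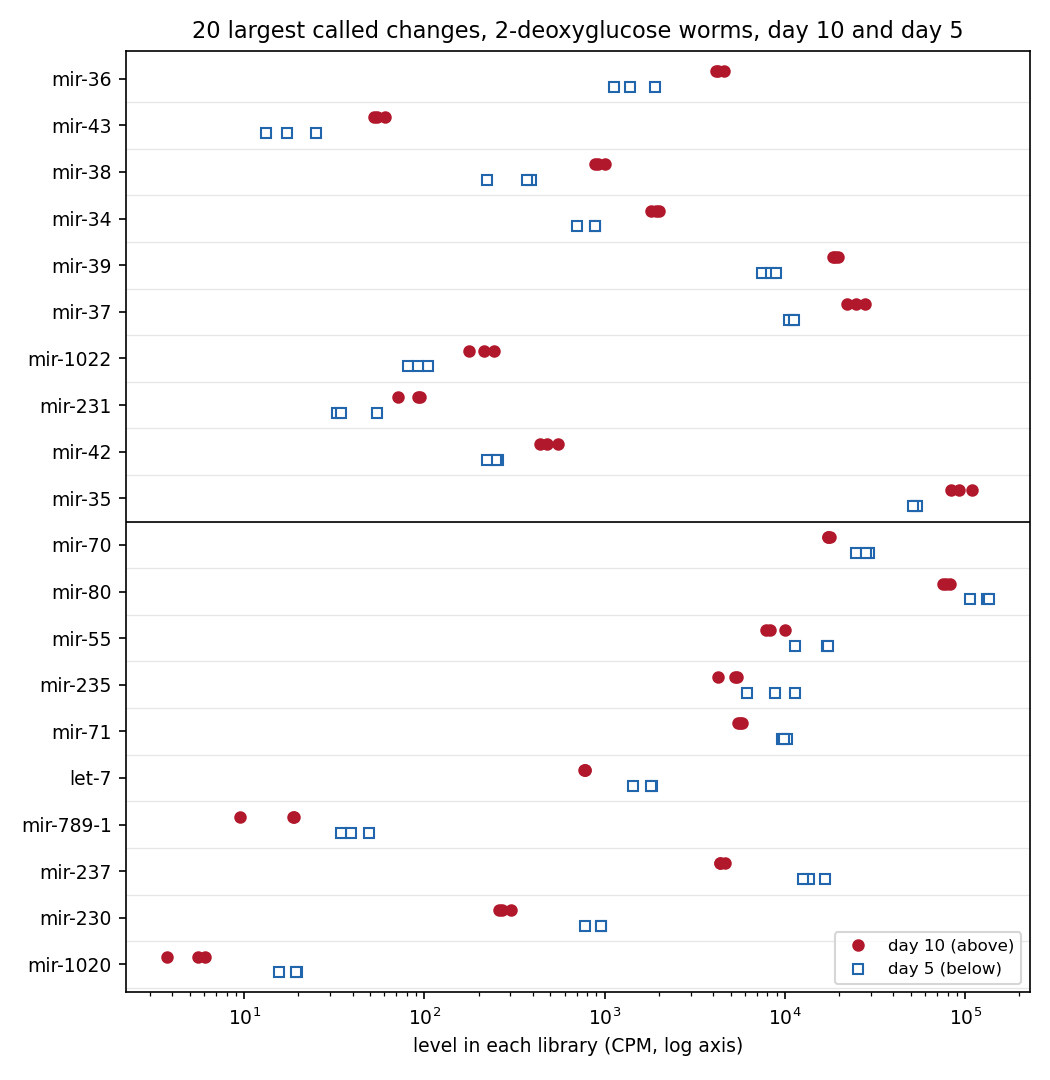
Levels in each library (CPM, log axis) of the 10 called members with the largest rise and the 10 with the largest fall; points are libraries, 3 at day 10 and 3 at day 5. In all 20 hairpins the day 10 points lie wholly above or wholly below the day 5 points. These hairpins were picked as the largest called changes in the same libraries, so this separation largely follows from the choice. Among them, mir-1020 also met the count rule through day 5 alone.

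Among the other rises, mir-1022, on the minus strand of the X chromosome at 6435425 to 6435512 (WBcel235), had 215, 243 and 178 CPM at day 10, against 105, 80.7 and 92.6 CPM at day 5 (log2 1.17 ± 0.15, adjusted p = 1.4e-06). mir-231, at 7545057 to 7545155 on chromosome III, had 94.2, 92.1 and 71.3 CPM at day 10, against 54.7, 32.9 and 34.5 CPM at day 5 (log2 1.02 ± 0.20, adjusted p = 0.00044). Neither pair of groups overlapped. mir-1829b, in an intron of F20D1.3 on the X chromosome, had 217, 225 and 220 CPM at day 10, against 143, 127 and 159 CPM at day 5 (log2 0.62 ± 0.13, adjusted p = 0.000534). mir-243, known for its loading into RDE-1, the Argonaute of the RNA interference pathway, had 257, 271 and 290 CPM at day 10, against 171, 211 and 208 CPM at day 5 (log2 0.48 ± 0.12, adjusted p = 0.00409). mir-1018 gave 0.55 ± 0.21 (adjusted p = 0.0465), was called in 8 of 17 alternatives and had its largest adjusted p with lane as a factor (0.39, adjusted p = 0.248). Its call was also lost without day 5 library 2 (0.54, adjusted p = 0.0817), day 5 library 3 (0.41, adjusted p = 0.22), day 10 library 2 (0.63, adjusted p = 0.078) or day 10 library 3 (0.51, adjusted p = 0.104).

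In the mir-58 and mir-51 families the called hairpins were all lower at day 10, 2 of 4 members and 1 of 6, beside 31.2% called over all hairpins tested. The mir-58 family, the worm relatives of fly bantam, took 36.0% ± 0.785 of counts at day 10 and 39.98% ± 2.31 at day 5 (SD, n = 3 libraries each). Of its 4 members, mir-80 and mir-81 fell, and the most abundant hairpin of all, mir-82, had 171614, 184841 and 193391 CPM at day 10, against 159270, 221872 and 181729 CPM at day 5 (log2 -0.03 ± 0.12), with the ages overlapping. mir-58a gave 0.17 ± 0.16. mir-81 (log2 -0.44 ± 0.13, adjusted p = 0.0111) lost its call without day 5 library 2 (-0.23, adjusted p = 0.13), day 10 library 1 (-0.31, adjusted p = 0.244) or day 10 library 2 (-0.41, adjusted p = 0.111). In all, mir-81 was called in 14 of 18 alternatives. In the mir-51 family, which is needed for embryonic and pharyngeal development, mir-55 was the called member, and the family took 4.91% ± 0.305 of counts at day 10 and 6.14% ± 0.467 at day 5 (SD, n = 3 libraries each).

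The mir-64 cluster gave 3 falls among 4 neighbouring hairpins, beside 15.6% called lower over all hairpins tested. They were mir-64 (log2 -0.40), mir-65 (log2 -0.47) and mir-229 (log2 -0.50), with adjusted p of 0.031, 0.0152 and 0.0314, while mir-66 was at 0.18. All 3 calls were lost without day 5 library 2, day 5 library 3, day 10 library 1 or day 10 library 2. Their log2 fold changes without these libraries in turn were -0.30, -0.32, -0.28 and -0.32 for mir-64, -0.37, -0.37, -0.35 and -0.41 for mir-65, and -0.47, -0.49, -0.44 and -0.40 for mir-229. Without day 10 library 3, mir-64 (-0.42) and mir-229 (-0.45) lost the call as well. In all, mir-64 was called in 10 of 18 alternatives, mir-65 in 13 and mir-229 in 12. Smaller families gave mir-87 at -0.62 ± 0.13 (adjusted p = 0.000834), mir-46 at -0.43 (adjusted p = 0.0053) and mir-50 at -0.46 (adjusted p = 0.014) lower at day 10. mir-87 lost its call without day 10 library 1 (-0.48, adjusted p = 0.0638) or day 10 library 2 (-0.49, adjusted p = 0.0579), and so did mir-46 (-0.32 and -0.35, adjusted p = 0.122 and 0.089). mir-50 lost it without day 5 library 3 (-0.37, adjusted p = 0.0829) or any of the 3 day 10 libraries (-0.39, -0.38 and -0.39). In all, mir-50 was called in 13 of 18 alternatives.

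Among markers of single tissues mir-228 was the 1 called. Of 7 such hairpins 1 fell, none rose, and the median was -0.35. That share of falls is near the 15.6% called lower over all hairpins tested. mir-60, made in the intestine, had 1854, 1446 and 1378 CPM at day 10, against 3767, 988 and 2237 CPM at day 5 (log2 -0.58 ± 0.35, adjusted p = 0.218). mir-1, made in muscle, had 396, 322 and 353 CPM at day 10, against 581, 278 and 495 CPM at day 5 (log2 -0.35 ± 0.20, adjusted p = 0.192). Both tissues' values overlapped between the ages. The neuronal hairpins lsy-6 (-0.36 ± 0.34), mir-124 (-0.14 ± 0.53), mir-790 (0.10 ± 0.25) and mir-791 (-0.19 ± 0.24) had errors as large as, or close to, their changes, and none passed.

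By position in the annotation, chromosome II held 10 rises and 1 fall among its 24 members, beside 15.6% called in each direction over all hairpins tested. The 10 rises were mir-45 and the hairpins of the mir-35 and mir-42 clusters except mir-41, with no rise elsewhere on that chromosome. mir-44 and mir-45 amount to 1 measurement among them. Chromosome III held 1 rise and 6 falls among 17, chromosome V 2 rises and 4 falls among 11, and chromosome I no rise and 3 falls among 13. On the X chromosome, with 40 members, 7 rose and 6 fell around a median of -0.01. Inside protein-coding genes 8 rose and 12 fell of 52, and outside them 14 rose and 10 fell of 76, beside the same 15.6% in each direction. Low-level hairpins were measured less precisely: in the least abundant group of 42 members, at 7.33 to 106 CPM, 3 rose and 2 fell with a median standard error of 0.31, and in the most abundant 43, at 1317 to 185453 CPM, 11 rose and 13 fell with a median standard error of 0.15.

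The step from day 5 to day 10 was set against the steps on either side of it in the same worms. The earlier step, day 5 against day 1, shares the day 5 libraries with it, and the later one, day 20 against day 10, shares the day 10 libraries, so the values are given side by side. let-7 and mir-237 were lower at each later age: let-7 changed by -1.58, -1.13 and -1.40 over the 3 successive steps, and mir-237 by -1.60, -1.68 and -1.09. mir-34 was higher at each, at 0.78, 1.22 and 0.66.

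The difference between the day 10 over day 5 change and the day 5 over day 1 change was tested as a contrast of its own. It was called for 34 of the 141 hairpins tested, or 24.1%, with 17 higher and 17 lower (12.1% each), and all 34 were members. For comparison, the earlier step alone had 44.7% called, 22.7% higher and 22% lower. Among the 34 were mir-63, mir-71 and mir-80, which were called higher at day 5 than at day 1 and lower at day 10 than at day 5. mir-80 had 79999, 77488 and 77180 CPM at day 1, against which day 5 was 0.67 higher on the log2 scale, and the second change minus the first was -1.33 (adjusted p = 9.31e-06). mir-71 had 7424, 7492 and 7262 CPM at day 1, a first change of 0.43, and a difference of -1.25 (adjusted p = 1.34e-05). In both hairpins the day 5 libraries were above those of every other age in 2-deoxyglucose.

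Also among the 34, and with the opposite course, were mir-1829b, mir-243, mir-250 and mir-61, called lower at day 5 than at day 1 and higher at day 10 than at day 5. mir-1829b had 364.5, 336 and 310.2 CPM at day 1, a first change of -1.23, and a difference between the changes of 1.85 (adjusted p = 2.6e-06). Its day 10 libraries lay between those of day 1 and day 5, so the rise at day 10 did not reach the day 1 level. mir-243 changed first by -0.53 and then by 0.48 (difference 1.01, adjusted p = 0.00126), and mir-250 first by -0.72 and then by 0.57 (difference 1.29). The difference was no longer called for mir-63 when libraries were scaled by total counts, or for mir-61 without day 5 library 1 (0.66, adjusted p = 0.0845). Because the day 5 libraries enter both changes with opposite sign, an error in them moves the changes apart. mir-63 and mir-243 were singled out after their values were seen.

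**Figure D4:**
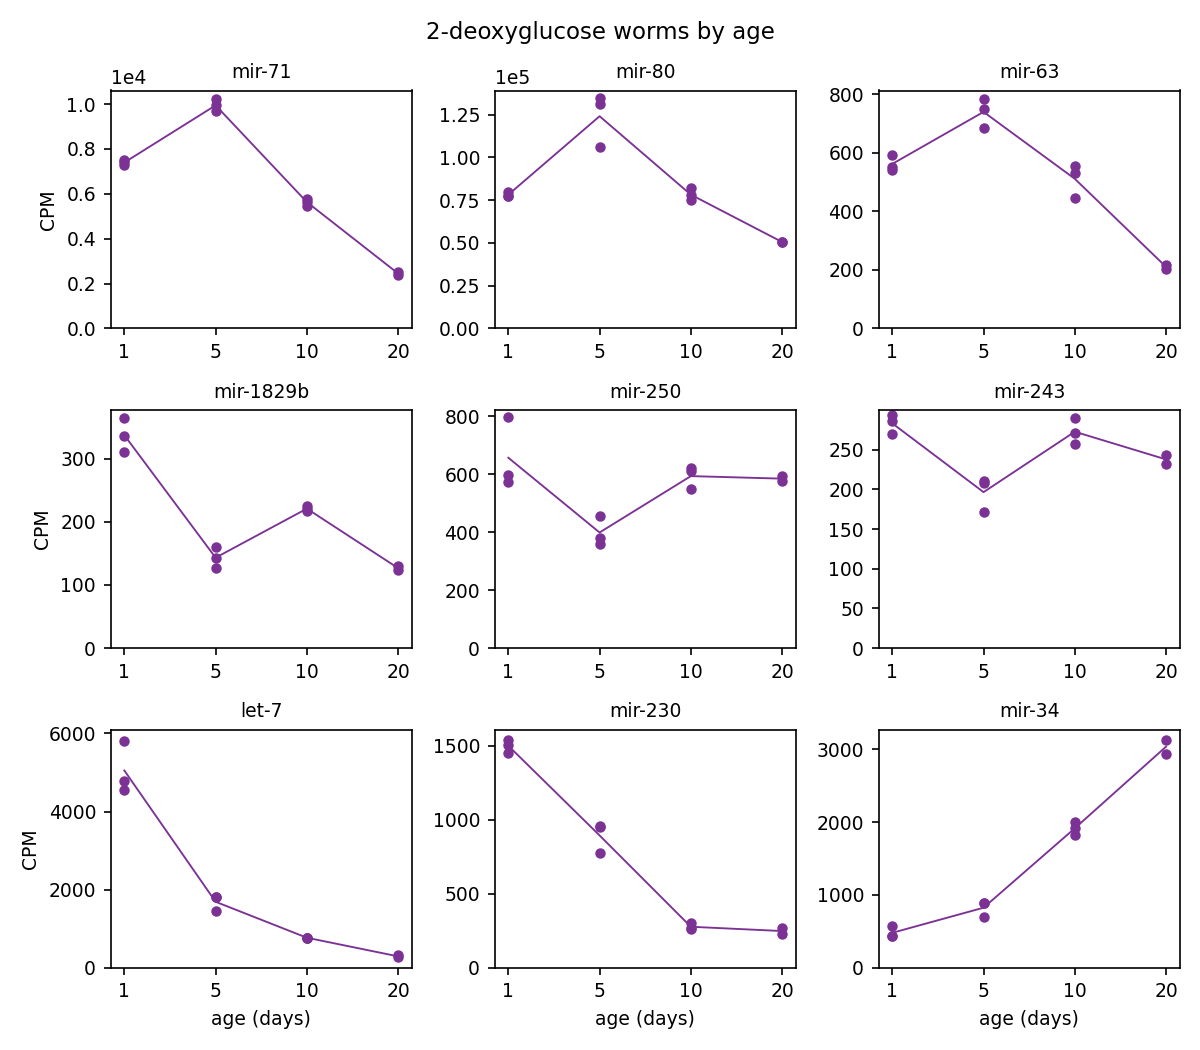
Levels (CPM) of chosen members in each 2-deoxyglucose library at 1, 5, 10 and 20 days. Points are libraries. Among those shown, mir-63, mir-71, mir-80, mir-1829b, mir-243 and mir-250 were called in opposite directions at day 5 over day 1 and at day 10 over day 5. mir-63, mir-71 and mir-80 peak at day 5, and mir-1829b, mir-243 and mir-250 have their day 5 libraries below those of days 1 and 10.

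Some members changed in an adjoining step and did not pass between day 5 and day 10. mir-238 changed by 1.28 (log2) from day 1 to day 5 and by -0.13 ± 0.12 from day 5 to day 10, and mir-355 by 2.27 and then 0.06 ± 0.15. The difference between the steps was -1.42 for mir-238 and -2.22 for mir-355. On the other side, the step from day 10 to day 20 differed from that of day 5 to day 10 for 30 of the 141 hairpins tested, or 21.3% (7.09% higher and 14.2% lower), of which 29 were members. The later step alone had 46.1% called. mir-239b changed by 0.78 and then by 2.38 (difference 1.60, adjusted p = 0.00366), mir-70 by -0.65 and then by -1.73, and mir-230 by -1.69 and then by -0.16. mir-2208a gave 0.70 ± 0.35 at day 10 against day 5, which did not pass (adjusted p = 0.134), and 5.46 in the next step.

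The same ages in rotenone worms come from other libraries, and there 49 of the 141 hairpins tested were called, or 34.8% (15.6% higher and 19.1% lower), of which 46 were members, 21 higher and 25 lower. Several of the largest falls were called in both compounds. mir-230 changed by -1.69 ± 0.16 in 2-deoxyglucose and -1.74 ± 0.16 in rotenone, mir-237 by -1.68 and -1.61, and let-7 by -1.13 and -0.98. mir-34 rose by 1.22 ± 0.13 in 2-deoxyglucose and by 0.71 ± 0.13 in rotenone, and the difference of 0.51 ± 0.18 did not pass (adjusted p = 0.0578).

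The age change differed between the compounds for 22 of the 141 hairpins tested, or 15.6% (12.1% higher and 3.55% lower in 2-deoxyglucose), and 21 of these were members, 16 higher and 5 lower. The mir-35 family gave 6 of the 16. In rotenone its members had a median log2 change of 0.33 with 3 called, against 1.10 and 7 in 2-deoxyglucose. mir-36 had 2476, 3312 and 2880 CPM in rotenone worms at day 10, against 2013, 2598 and 2556 CPM at day 5, a change of 0.27 ± 0.15, which differed from that in 2-deoxyglucose by 1.28 ± 0.22 (adjusted p = 0.00084). The difference was 0.96 for mir-35 (adjusted p = 0.0234), 0.93 for mir-37 (adjusted p = 0.0304), 0.83 for mir-38 (adjusted p = 0.0306) and 0.77 for mir-39 (adjusted p = 0.00186). In rotenone the family took 21.1% ± 2.41 of counts at day 10 and 20.9% ± 2.88 at day 5 (SD, n = 3 libraries each). With lane as a factor the difference was called for 5 hairpins in place of 22, and mir-36 was the 1 member called under every alternative run. Without day 10 library 1 or day 10 library 2 of 2-deoxyglucose the differences of mir-35 (0.98 and 0.92), mir-37 (0.96 and 0.89), mir-38 (0.71 and 0.81) and mir-39 (0.73 and 0.71) lost their calls. Without day 10 library 3 so did those of mir-35 (0.85), mir-37 (0.84) and mir-38 (0.84), without day 5 library 2 those of mir-37 (0.90) and mir-38 (0.62), and without day 5 library 3 that of mir-37 (0.95).

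Outside that family, mir-1829b rose by 0.62 on the log2 scale in 2-deoxyglucose and changed by -0.31 in rotenone (difference 0.92, adjusted p = 0.00182). mir-250 rose by 0.57 in 2-deoxyglucose and fell by 0.45 in rotenone (difference 1.02, adjusted p = 0.00309). Lower in 2-deoxyglucose were mir-80, at -0.67 against -0.18 in rotenone (difference -0.49, adjusted p = 0.0325), and mir-241, at -0.60 against 0.09 in rotenone (difference -0.68, adjusted p = 0.0311). Without day 10 library 1 or day 10 library 2 the calls of mir-250 (0.94 and 0.93), mir-80 (-0.55 and -0.52) and mir-241 (-0.77 and -0.80) were lost. mir-80 and mir-241 also lost them without day 10 library 3 (-0.52 and -0.61), day 5 library 2 (-0.45 and -0.64) or day 5 library 3 (-0.43 and -0.69), while mir-1829b lost its call with lane as a factor alone.

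**Figure D5:**
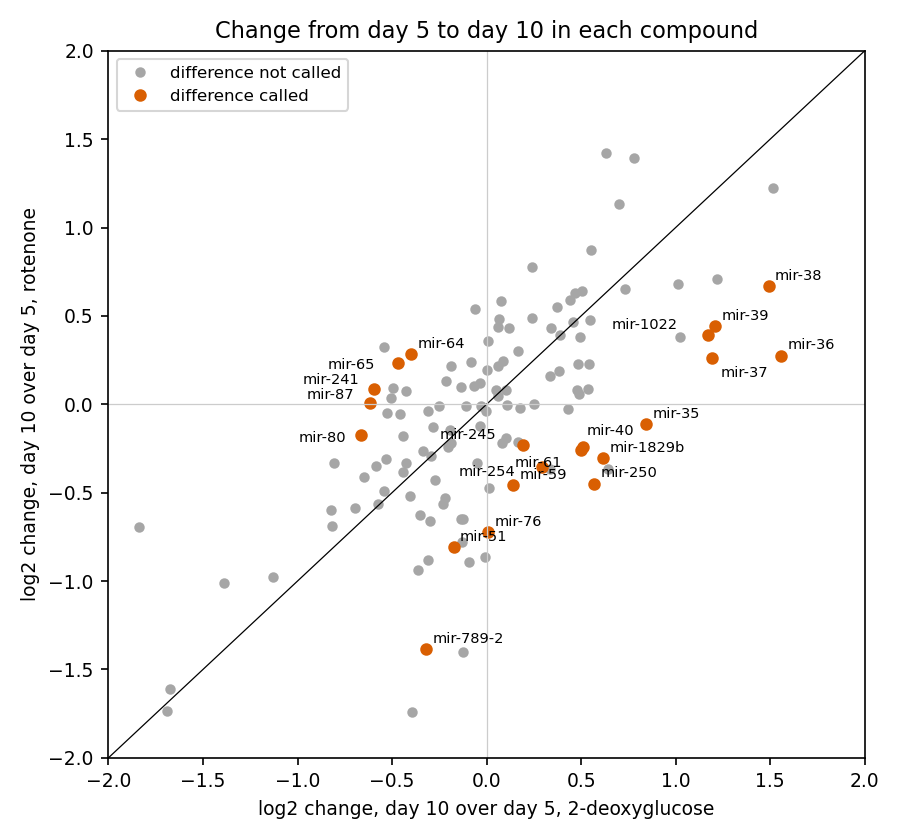
Log2 fold change, day 10 over day 5, of each member in 2-deoxyglucose worms (horizontal axis) and in rotenone worms (vertical axis); the diagonal marks equal change. The 21 members whose change was called different between compounds are named, and mir-36 lies farthest right among them.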

How the data were processed

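Small RNA was extracted from whole worms and made into libraries (TruSeq smallRNA), per the labels' protocols, and the authors deposited 1 table of raw counts per microRNA hairpin and library. Tools named in the submitters' processing notes are SAMtools 1.3.1-9, BWA 0.7.12-r1039, Trimmomatic 0.36 and CASAVA 1.8.4. For genome build, strand use and reads matching more than 1 hairpin, nothing was given in the sources used here. The 5p and 3p arms of a hairpin cannot be separated, and hairpins with a shared mature sequence may share reads.

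Libraries were scaled by TMM. The 141 hairpins that passed filterByExpr or the count rule were fitted in edgeR 4.0.16 with 1 mean for each of the 8 groups of compound and age over all 22 libraries (glmQLFit, robust, glmQLFTest, Benjamini-Hochberg adjustment over 141). Contrasts were day 10 over day 5 in 2-deoxyglucose, that change minus the same in rotenone, and its differences from the neighbouring age steps. Standard errors are the log2 fold change divided by the root of F, and CPM values use TMM library sizes. The fit was tested on simulated data. Named hairpins are the 10 called members with the largest rise and the 10 with the largest fall, the 10 most abundant, the 5 with the smallest adjusted p in each difference of contrasts, and the members of families and lists. Members and lists were chosen with earlier results of these data known. Alternatives changed the scaling, the filter, the tool (DESeq2 1.42.0, limma-voom 3.58.1), the libraries fitted and the lane term. The lane 4 pair was added after the data were seen. Of the 250 hairpins, 247 matched the Ensembl annotation of WBcel235 by name. let-7 was placed by RefSeq.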

Additional observations from a re-analysis of the deposited data

Results flagged for a closer look

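The age change, day 10 over day 5, differed between 2-deoxyglucose and rotenone by the test of that difference for 21 members, given here as log2 change in 2-deoxyglucose minus that in rotenone. In the mir-35 family the differences were 0.96 for mir-35, 1.28 for mir-36, 0.93 for mir-37, 0.83 for mir-38, 0.77 for mir-39 and 0.75 for mir-40. In hairpins of the mir-2 and mir-44 seeds they were 1.02 for mir-250 and 0.76 for mir-61. Others above 0 were mir-1022 at 0.78, mir-1829b at 0.92, mir-245 at 0.42, mir-254 at 0.65, mir-51 at 0.63, mir-59 at 0.60, mir-76 at 0.73 and mir-789-2 at 1.07. The split of reads between mir-789-2 and mir-789-1 is uncertain. From day 5 to day 10 the pair summed went from 64.4 to 34.2 CPM in 2-deoxyglucose. In rotenone it went from 68.8 to 30.6 CPM. Below 0 were mir-241 at -0.68, mir-64 at -0.68, mir-65 at -0.70, mir-80 at -0.49 and mir-87 at -0.63. mir-254 and mir-76 were singled out after their values were seen. mir-76, for example, changed by 0.01 ± 0.17 in 2-deoxyglucose and -0.72 ± 0.16 in rotenone, and mir-59 by 0.14 ± 0.13 in 2-deoxyglucose and -0.46 ± 0.13 in rotenone. Of the 21, mir-36 alone kept its call under every alternative run.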

How the results depend on the processing

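No paired analysis was possible because the labels carry no replicate numbers. The 44 calls at day 10 against day 5 became 39 to 51 under other scalings, filters, tools and subsets (DESeq2 46, limma-voom 47), and 34 to 43 without 1 library. Calls lower at day 10 ran from 11 to 22 and calls higher from 20 to 24 as 1 library at a time was left out, with 11 and 12 lower without day 10 library 1 and day 10 library 2, where the median of all hairpins was 0.05 and 0.11. The difference between compounds, called for 22, was called for 14 with total counts, 13 when the scaling ignored the 5 most abundant hairpins and the mir-35 family, 10 without a filter, 5 with lane as a factor and 2 to 26 without 1 library. The difference from the later age step, called for 30, was called for 13 to 39 without 1 library. Requiring 100 or more counts left 31 calls in rotenone (49 before) and 39 at day 5 against day 1 (63 before), with fewer hairpins tested. For the others the cause was not tested. None of the 44 called hairpins changed sign under any alternative run, while the median of all hairpins lay between -0.09 and 0.11. In the least abundant members, up to 106 CPM, the median standard error was 0.31. Among the 6 libraries only lane 4 holds both ages, so the fit with lane as a factor leans on libraries of the other groups. Counting intervals would cover counting error only.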
